A study of Mus musculus with 4 samples.

Results

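The cytosolic ribosomal protein genes of the mouse testis are described here, together with the copies of them that carry a related name. Members were taken by gene symbol alone: every symbol that starts with Rpl or Rps and a number, and Rplp0, Rplp1, Rplp2 and Rpsa, leaving out the Rps6k kinases and the symbols with the pseudogene ending. The rule found 88 of the 24420 symbols of the deposited table. They are 46 proteins of the large subunit, 31 of the small subunit, 10 paralogs and Rps19bp1, which the rule takes by its name although it encodes a protein that binds Rps19 and is no part of the ribosome. The rule uses names and no measured value. The libraries came from freshly isolated testis of FVB mice. MUT is the genotype given as lrrc8a MUT, with 2 libraries, and WT is wild type, with 2 libraries. All 4 libraries had the same Trizol extraction, DNase I treatment of the RNA and Illumina TruSeq stranded mRNA kit. The kind of mutation, the age of the mice and the number of animals behind a library are not stated in the labels. The p-values therefore measure only how far libraries of a genotype differ, which may be technical. The study examined which genes are differentially expressed between these testes, and LRRC8A is part of the anion channel that opens when cells swell.

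Cytosolic ribosomes translate almost all mRNA of a cell, and each of the core ribosomal proteins is made in near equal number for assembly with ribosomal RNA in the nucleolus. Their mRNAs share a pyrimidine-rich start, the TOP motif, through which mTORC1 and Larp1 control their translation. Male germ cells are a special case because genes on the X chromosome are silenced during meiosis. Several X-linked ribosomal protein genes have autosomal copies that are active in spermatogenic cells, among them Rpl10l, which stands in for Rpl10 in meiosis, and Rpl39l, which takes the place of Rpl39 at the tunnel through which the new protein leaves the ribosome.

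The 4 libraries held between 40426400 and 68192776 reads assigned to genes, recovered from the deposited CPM. These CPM are reads divided by a scaled library size, and they do not sum to 1e+06. Their sums were 992487 and 987723 in MUT and 1011463 and 1008533 in WT. A floor of 3 reads was worth 0.0445 to 0.0733 CPM, which covers counting error only. Lrrc8a itself stood at 13.5 and 15.9 CPM in MUT against 18.2 and 17.1 CPM in WT, and its log2 fold change of -0.26 (SE 0.10) had an adjusted p of 0.218 in limma's test across all genes. Of 15364 genes tested with limma, 115 had a Benjamini-Hochberg adjusted p under 0.05, 74 higher and 41 lower in MUT. After each library was rescaled to a sum of 1e+06 the split was 122 higher and 34 lower. Although the labels name germ cells, markers of somatic cells were present: the 8 Sertoli markers summed to 863 to 956 CPM and the 6 Leydig markers to 896 to 1096 CPM, beside 14679 to 16443 CPM for the 7 markers of elongating spermatids. Of the 6 Leydig markers 5 had a fold change above 0, with 1 called higher by limma. All 5 markers of peritubular myoid cells were below 0, with 0 called and 2 at an unadjusted p under 0.05. Over all tested genes 6.98% were lower at that threshold. Leydig marker sums did not overlap between genotypes, at 1057 and 1096 CPM in MUT against 915 and 896 CPM in WT. Those of peritubular myoid markers did not either, at 95.0 and 104.3 CPM in MUT against 117.3 and 110.2 CPM in WT. The lists of spermatogonia (4 of 7 above 0, 1 called higher), Sertoli cells (5 of 8 above 0, 1 called lower) and macrophages (3 of 5 above 0, 1 called lower) held members on both sides. Sertoli sums also did not overlap, at 923 and 956 CPM in MUT against 914 and 863 CPM in WT. Macrophage sums did not overlap at 68.8 and 68.1 CPM in MUT against 64.3 and 64.6 CPM in WT, while spermatogonia sums overlapped. The part of these cell types in the ribosomal protein values was not tested. Hba-a1, Hba-a2, Hbb-bs and Hbb-bt, the erythroid globins, were listed at 0 in all libraries.

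The ribosomal protein mRNAs as a group took nearly the same part of the reads in both genotypes. Summed over the 88 members, they stood at 12329 CPM in MUT 1 and 12048 CPM in MUT 2, and at 13090 CPM in WT 1 and 11988 CPM in WT 2. The groups overlapped: WT 1 was the highest library and WT 2 the lowest. As shares of all CPM these sums were 1.24%, 1.22%, 1.29% and 1.19% in the same order. The summed level differed by -0.0396 on the log2 scale between MUT and WT, less than its spread between libraries of a genotype (SD 0.066). In bulk RNA, fewer cells of a type and less RNA per cell cannot be told apart.

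Of the 88 members, 81 had at least 1 CPM in at least 2 libraries and were tested. A single member, Rps20, was called, and it was lower in MUT. Over all tested genes 0.749% were called, 0.482% higher and 0.267% lower. At an unadjusted p under 0.05, 4 members were higher and 12 lower, beside 7.74% and 6.98% of all tested genes. The libraries of the genotypes did not overlap for 7 members that were higher in MUT and 19 that were lower, beside 23.0% and 22.6% of all tested genes. The median log2 fold change was -0.043 over the tested members and -0.0016 over all tested genes. A value below 0 was found for 54 of the 81 members, beside 50.4% of all tested genes. Fold changes were small throughout: 55 members lay within 0.1 of 0, and 10 lay beyond 0.2. The limma SE of a member's fold change had a median of 0.071, beside 0.095 over all tested genes. That SE is drawn toward a trend on the level of a gene, so it is not the observed spread alone. Between WT 1 and WT 2 the members differed by a median of 0.117 on the log2 scale, beside 0.101 over all genes. Between MUT 1 and MUT 2 these medians were 0.083 and 0.088.

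**Figure D1:**
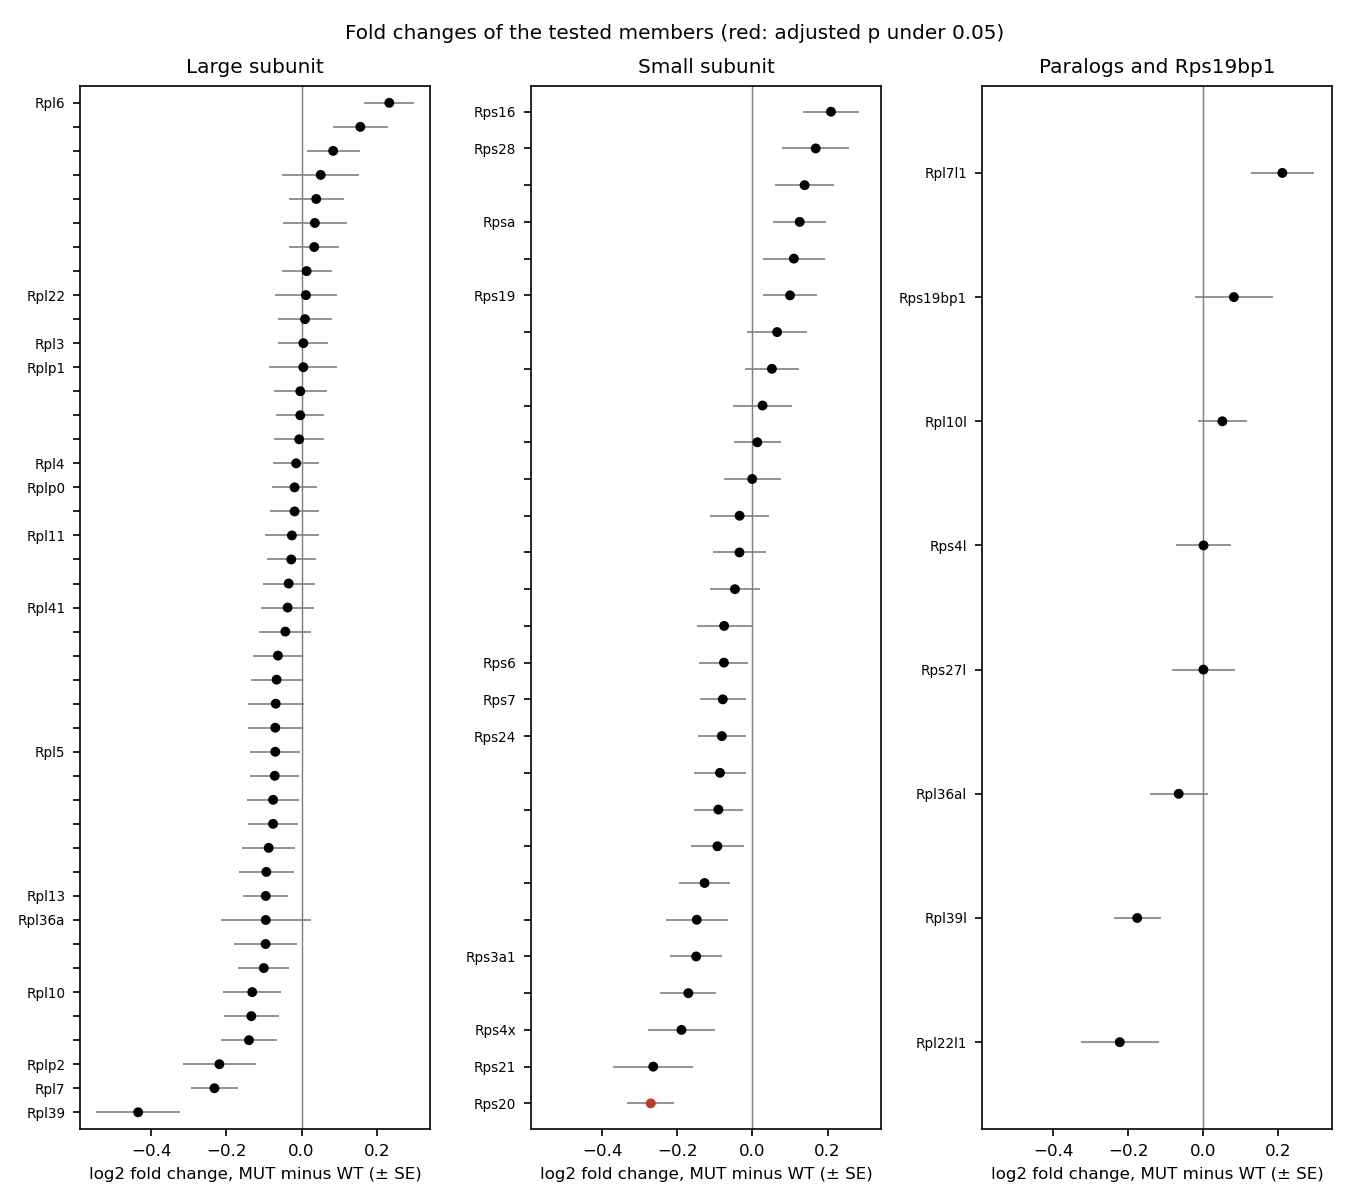
Each point is the log2 fold change of a tested member, MUT minus WT on the log2(CPM + 0.5) scale, with its limma SE as a bar, in the large subunit (43 genes), the small subunit (28 genes shown) and the paralogs with Rps19bp1 (8 genes), with names for the genes named in the text. The values run from -0.44 for Rpl39 to 0.23 for Rpl6, and Rps20 at -0.27 is the only point in red, with an adjusted p under 0.05.

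The small shift of the group depended on which wild-type library was used. WT 1 held the highest value of the 4 libraries in 55 of the 81 tested members, which is 67.9%, against 24.7% of all tested genes. WT 2 held the lowest value in 38 members and MUT 2 in 33, against 9 in MUT 1 and 1 in WT 1. Without WT 1 the median log2 fold change of the members turned to 0.016, with 46 members above 0 and 35 below. Without WT 2 it was -0.10, with 11 above 0 and 70 below. Leaving out MUT 1 gave -0.063, and leaving out MUT 2 gave -0.026. The 3 rescalings left the member median between -0.022 and -0.015 while they moved the median of all tested genes to between 0.020 and 0.026. Quantile normalization gave -0.022 for the members and -0.0017 for all tested genes. The summed markers of elongating spermatids were highest in WT 1 too, at 16443 CPM against 15434 CPM in MUT 1, 14679 CPM in MUT 2 and 14991 CPM in WT 2. The part of that difference in the ribosomal protein values was not tested. None of the 7 elongating spermatid markers was called, beside 0.749% of all tested genes. Of these markers, 2 were lower in MUT without overlap, beside 22.6% of all tested genes.

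**Figure D2:**
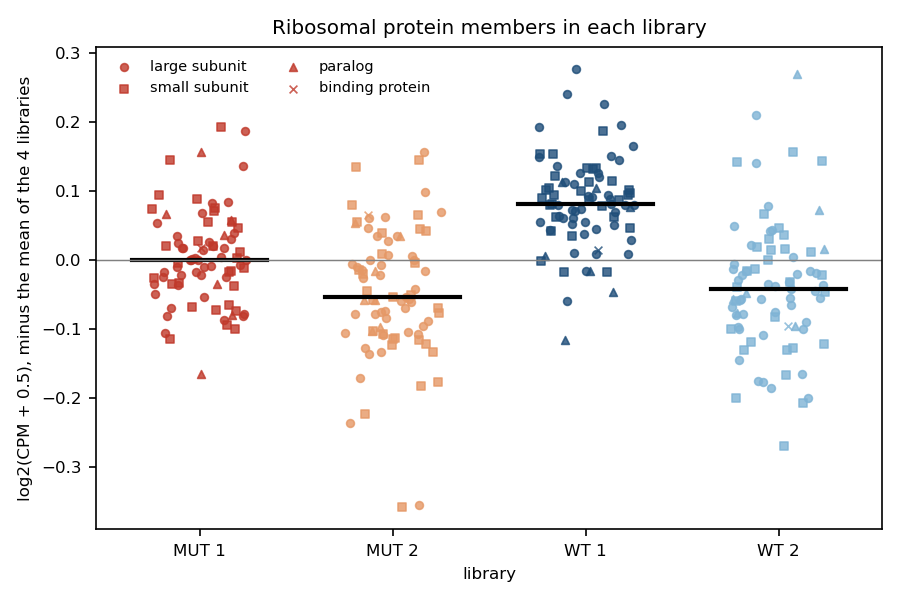
Each point is a tested member in a library, as log2(CPM + 0.5) minus that member's mean over the 4 libraries, with the shape giving its class and the black bar the median of the library. Most points of WT 1 lie above 0, where 55 of 81 members have their highest value, and the median of WT 1 lies above those of the other 3 libraries.

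**Figure D3:**
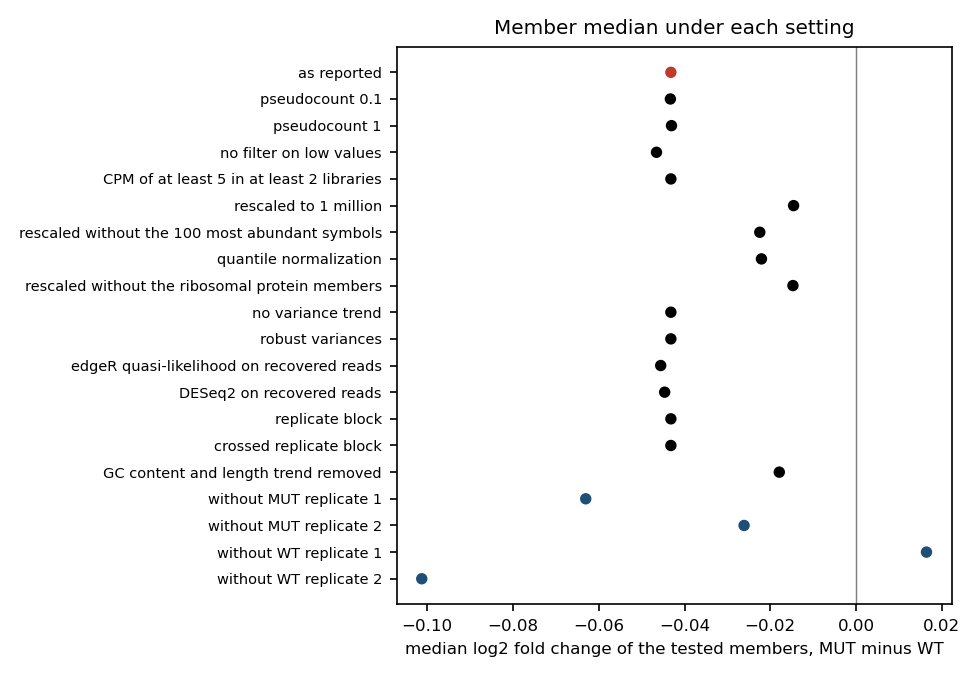
Each point is the median log2 fold change over the tested members, MUT minus WT, under a processing setting, with the value as reported in red and the fits that leave out a library in blue. The reported median is -0.043, and the point without WT replicate 1 is the only point above 0, at 0.016.

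In the small subunit, Rps20 fell in MUT. Rps20, which encodes a protein of the head of the subunit, lies at chr4:3831334-3835665 on the minus strand of GRCm38. Of the 3657 windows of 50 bases in its transcript, 277 occur in transcripts of 50 other genes. That transcript has 3706 nt, of which 357 are coding. The part of reads with several matches in the values of Rps20 was not tested. Rps20 is the only called member. It stood at 240.5 and 227.0 CPM in MUT against 277.8 and 286.2 CPM in WT, and both MUT libraries were below both WT libraries. Its log2 fold change was -0.27 (SE 0.062, n = 2 and 2), which is 1.21-fold lower, with an adjusted p of 0.04996 in limma's test. The call sat at the threshold. It was lost in 12 of 19 alternatives, some of which leave out a library and so keep a single library of a genotype. The limma adjusted p was 0.279 with no variance trend, 0.223 with no filter, 0.09997 with quantile normalization, 0.0907 with the replicate block, 0.0702 with rescaling to a sum of 1e+06 and 0.0512 with a pseudocount of 0.1. With a library left out the log2 fold change of Rps20 ranged from -0.31 to -0.23. Since a genotype then has a single library, a call lost there cannot show that the difference depends on that library. The count tests on recovered reads called Rps20, with an adjusted p of 0.0481 in edgeR and 0.0110 in DESeq2. Its direction was the same in all 19 alternatives, from -0.31 to -0.23.

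The other small subunit members with low values in MUT did not pass the test. Rps21 stood at 39.3 and 28.6 CPM in MUT against 40.0 and 40.6 CPM in WT, so that MUT 2 was low and MUT 1 was close to WT. Its log2 fold change was -0.26 (SE 0.11) with a limma adjusted p of 0.253, and ranged from -0.49 to -0.039 with a library left out. In the whole class of 30 tested genes, 11 were lower in MUT without overlap, beside 22.6% of all tested genes, and 3 were higher, beside 23.0%, and the median log2 fold change was -0.076.

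Some small subunit members lay on the other side. Rps16, whose protein has a tail that reaches toward the tRNA, stood at 115.8 and 109.5 CPM in MUT against 104.6 and 90.6 CPM in WT, with both MUT libraries above both WT libraries. Its log2 fold change was 0.21 (SE 0.075) with a limma adjusted p of 0.1998, and 0.31 without WT 1. Rpsa, a protein of the small subunit also known as a laminin receptor, stood at 209.4 and 207.0 CPM in MUT against 205.1 and 177.5 CPM in WT. WT 2 was the low library there, and the limma adjusted p was 0.428. Rps28 stood at 115.1, 114.4 and 116.1 CPM in MUT 1, MUT 2 and WT 1 and at 89.7 CPM in WT 2. Its log2 fold change was 0.17 (SE 0.090), and 0.35 without WT 1. Rps28 is named here after its values were seen.

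Rps6 and Rps19 were close between the genotypes. Rps6, the substrate of the S6 kinases downstream of mTORC1, stood at 212.8 and 194.3 CPM in MUT against 215.5 and 213.2 CPM in WT, with a log2 fold change of -0.076 (SE 0.065). Rps19, known from Diamond-Blackfan anaemia, stood at 63.2 and 62.8 CPM in MUT against 60.1 and 57.4 CPM in WT, with a log2 fold change of 0.10 (SE 0.072). Neither gene passed the test, with limma adjusted p-values of 0.628 and 0.549. Rps24 had the highest CPM of the small subunit, at 344.4 and 330.9 in MUT and 375.6 and 339.8 in WT, and its groups overlapped. Rps7 followed, at 300.1 and 310.7 CPM in MUT and 327.8 and 317.4 CPM in WT, with a log2 fold change of -0.079 (SE 0.061). Rps3a1 stood at 106.3 and 110.0 CPM in MUT against 124.8 and 115.4 CPM in WT, with a limma adjusted p of 0.316.

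In the large subunit no member was called, beside 0.749% of all tested genes. The class had 43 tested genes, with a median log2 fold change of -0.037. At an unadjusted p under 0.05, 2 were higher and 3 lower in MUT, beside 7.74% and 6.98% of all tested genes. The lowest fold change of all members belonged to Rpl39, a very short protein that lines the exit tunnel. Rpl39 stood at 9.23 and 7.55 CPM in MUT, from 450 and 309 reads, and at 11.5 and 11.4 CPM in WT, from 777 and 567 reads. Both MUT libraries were low and did not overlap WT. Its log2 fold change was -0.44 (SE 0.11), with a limma adjusted p of 0.0773, and -0.57 without MUT 1. Rpl7 stood at 172.1 and 169.5 CPM in MUT against 197.4 and 204.1 CPM in WT. Its groups did not overlap, its log2 fold change was -0.23 (SE 0.063), and its adjusted p was 0.0897 in limma and 0.0472 in DESeq2 on recovered reads.

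Rpl6 lay highest among the fold changes. It stood at 163.1 and 158.8 CPM in MUT against 142.4 and 131.4 CPM in WT, and both MUT libraries were above both WT libraries. The log2 fold change was 0.23 (SE 0.067) with a limma adjusted p of 0.106, and 0.29 without WT 1. Rpl6 lies at chr5:121204481-121209241 and shares 64.3% of the 50-base windows of its transcript with transcripts of other genes.

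The stalk proteins, which recruit the elongation factors to the ribosome, did not separate the genotypes. Rplp0, the base of the stalk, stood at 756.5 and 772.6 CPM in MUT against 810.2 and 740.3 CPM in WT. Rplp1 stood at 181.6 and 175.8 CPM in MUT against 204.4 and 155.3 CPM in WT. Rplp2 stood at 79.7 and 66.7 CPM in MUT against 95.4 and 75.6 CPM in WT. All 3 genes had WT 1 as their highest library and groups that overlapped. Rplp2 had a log2 fold change of -0.22 (SE 0.097) with a limma adjusted p of 0.302, and -0.39 without WT 2. Rplp0 and Rplp1 were near 0, at -0.019 (SE 0.061) and 0.0046 (SE 0.090), and both changed sign in some alternatives.

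Rpl5 and Rpl11, which form a particle with 5S ribosomal RNA and bind Mdm2 when ribosome assembly fails, showed no difference that passed the test. Rpl5 stood at 154.3 and 161.9 CPM in MUT against 172.2 and 159.9 CPM in WT, with a log2 fold change of -0.070 (SE 0.066). Rpl11 stood at 190.5 and 167.0 CPM in MUT against 187.0 and 176.4 CPM in WT, with a log2 fold change of -0.026 (SE 0.071). The groups overlapped for both. Rpl4, a protein of the exit tunnel wall, stood at 296.6 and 296.7 CPM in MUT against 305.9 and 293.6 CPM in WT. Its log2 fold change was -0.015 (SE 0.061), and Rpl13, with 304.0 and 298.4 CPM in MUT and 322.8 and 320.8 CPM in WT, had -0.095 (SE 0.060) and a limma adjusted p of 0.482.

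Levels per length were compared between genes by dividing the CPM by the length of a transcript in kilobases. On this scale Rpl41 was highest, at 1223 CPM per kb averaged over the libraries, followed by Rplp0 at 567 and Rps29 at 434. The median of the tested members was 183 CPM per kb. Among the core proteins that were tested, the lowest were Rpl39 at 16.2, Rpl36a at 21.9, Rps4x at 22.1, Rps3 at 47.0 and Rpl10 at 49.1 CPM per kb. The order depends on the transcript taken for the length: that of Rps3 has 1908 nt, against 799 nt for Rpl10. The 4 members on the X chromosome are Rpl10, Rpl36a, Rpl39 and Rps4x, and all of them are in this lowest group.

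The 4 X-linked members all had a log2 fold change below 0, with a median of -0.16, beside 50.4% of all tested genes below 0. Rpl10, which joins the large subunit late in its maturation, stood at 37.7 and 37.1 CPM in MUT against 41.5 and 40.6 CPM in WT, with a log2 fold change of -0.13 (SE 0.077). Rps4x, a small subunit protein, stood at 20.3 and 19.8 CPM in MUT against 23.9 and 21.995 CPM in WT, with a log2 fold change of -0.19 (SE 0.088). For these 2 genes and for Rpl39 the MUT libraries were below the WT libraries, as they were for 22.6% of all tested genes. On the X chromosome this held for 90 of 605 tested genes, and the reverse for 194. Rpl36a, whose protein touches the exit site of the tRNA, stood at 10.5 and 9.80 CPM in MUT against 12.5 and 9.45 CPM in WT, and its groups overlapped. It turned to 0.097 without WT 1. None of the 4 passed the test, with limma adjusted p-values of 0.0773 for Rpl39, 0.329 for Rps4x, 0.446 for Rpl10 and 0.765 for Rpl36a. The 605 tested genes of the X chromosome had a median log2 fold change of 0.058, with 390 above 0, 10 called higher and 0 called lower by limma's test. Over all tested genes 0.482% were called higher and 0.267% lower. At an unadjusted p under 0.05, 90 of the 605 genes were higher and 23 lower, beside 7.74% and 6.98% of all tested genes. Copies elsewhere in the genome make some of these values uncertain: Rpl10, Rpl36a and Rps4x share 92.1%, 85.5% and 72.3% of their 50-base windows with transcripts of other genes, and Rpl39 shares 16.5%.

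Each X-linked member has an autosomal paralog among the members. The genes of a pair are similar in sequence, and the differing bases are what lets reads be told apart within the pair, so 2 pairs are shown. Sequences are of the coding strand, 5′ to 3′, from the GENCODE vM21 transcripts of GRCm38. Capitals mark the bases that differ between the aligned genes of a pair. Rpl39l (chr16:10170226-10174911, plus strand) and Rpl39 (chrX:37082520-37085402, minus strand) are shown over their whole coding sequence of 153 bases, where 23 bases differ.
Rpl39l: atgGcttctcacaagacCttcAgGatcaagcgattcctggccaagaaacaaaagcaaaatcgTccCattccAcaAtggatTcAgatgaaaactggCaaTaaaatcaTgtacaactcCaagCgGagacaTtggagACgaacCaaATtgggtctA
Rpl39: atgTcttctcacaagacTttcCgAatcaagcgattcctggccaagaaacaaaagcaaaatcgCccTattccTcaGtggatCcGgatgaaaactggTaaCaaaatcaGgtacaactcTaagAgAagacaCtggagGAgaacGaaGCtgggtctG
Rpl10l (chr12:66283379-66284401, minus strand) and Rpl10 (chrX:74270812-74273135, plus strand) are shown over the first 150 of 642 coding bases, where 25 bases differ.
Rpl10l: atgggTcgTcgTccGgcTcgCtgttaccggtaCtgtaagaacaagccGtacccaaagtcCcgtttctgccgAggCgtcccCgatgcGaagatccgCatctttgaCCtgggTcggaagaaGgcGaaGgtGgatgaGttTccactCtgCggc
Rpl10: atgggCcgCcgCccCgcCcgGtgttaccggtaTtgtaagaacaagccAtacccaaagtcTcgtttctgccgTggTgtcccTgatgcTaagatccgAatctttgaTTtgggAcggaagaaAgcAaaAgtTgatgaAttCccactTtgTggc
Over the aligned coding sequences, identity was 85.0% for Rpl39l with Rpl39, 84.7% for Rpl10l with Rpl10 and 87.7% for Rpl36al with Rpl36a. The differing bases are spread along the sequences, and no window of 50 coding bases was shared within any of these 3 pairs. Rps4l is annotated as a transcribed processed pseudogene with no coding sequence, and 79.95% of 783 aligned bases of the Rps4x coding sequence were identical in it.

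In both genotypes the autosomal copies had the higher CPM per kb in each pair with an X-linked gene. The X-linked genes shared more of their 50-base windows with transcripts of other genes. This was 92.1% for Rpl10 against 7.6% for Rpl10l, and 72.3% for Rps4x against 17.97% for Rps4l. It was 85.5% for Rpl36a against 63.3% for Rpl36al, and 16.5% for Rpl39 against 0% for Rpl39l. How reads with several matches were counted is not stated, and its part in the pair shares was not tested. Rpl39l stood at 316 and 313 CPM per kb in MUT and at 359 and 351 CPM per kb in WT, while Rpl39 stood at 15.1 and 12.3 in MUT and 18.8 and 18.6 in WT. Rpl39l therefore took 95.5% and 96.2% of the pair in MUT and 95.0% in each WT library. Both genes were lower in MUT without overlap, and the shares differed by 0.834 percentage points (SD within genotypes 0.376), which became 0.458 without MUT 2 and 1.21 without MUT 1. On the CPM scale Rpl39l stood at 174.0 and 171.9 in MUT and at 197.6 and 193.3 in WT, with a log2 fold change of -0.18 (SE 0.063) and a limma adjusted p of 0.192.

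Rpl10l took 77.3% and 76.6% of its pair with Rpl10 in MUT and 74.8% and 74.4% in WT. The MUT shares lay above the WT shares, by 2.34 percentage points on average (SD within genotypes 0.409). Rpl10l itself stood at 164.5 and 155.3 CPM in MUT against 157.8 and 151.0 CPM in WT, with a log2 fold change of 0.051 (SE 0.065), and its groups overlapped. Rps4l took 85.1% and 84.4% of its pair with Rps4x in MUT and 83.1% and 82.8% in WT, a difference of 1.82 percentage points (SD within genotypes 0.375). Rps4l stood at 93.9 and 86.6 CPM in MUT against 95.1 and 85.5 CPM in WT, with a log2 fold change of 0.00056 (SE 0.074), and its groups overlapped. Rpl36al took 86.8% and 86.5% of its pair with Rpl36a in MUT and 85.4% and 87.3% in WT, and the shares overlapped. Their mean difference of 0.298 percentage points turned to -0.681 without WT 1. Rpl36al stood at 75.2 and 68.2 CPM in MUT against 79.3 and 70.9 CPM in WT, with a log2 fold change of -0.066 (SE 0.078). No test was run on these shares, which are given with their spread. With 2 libraries in each genotype the smallest two-sided p of an exact permutation test is 0.333.

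**Figure D4:**
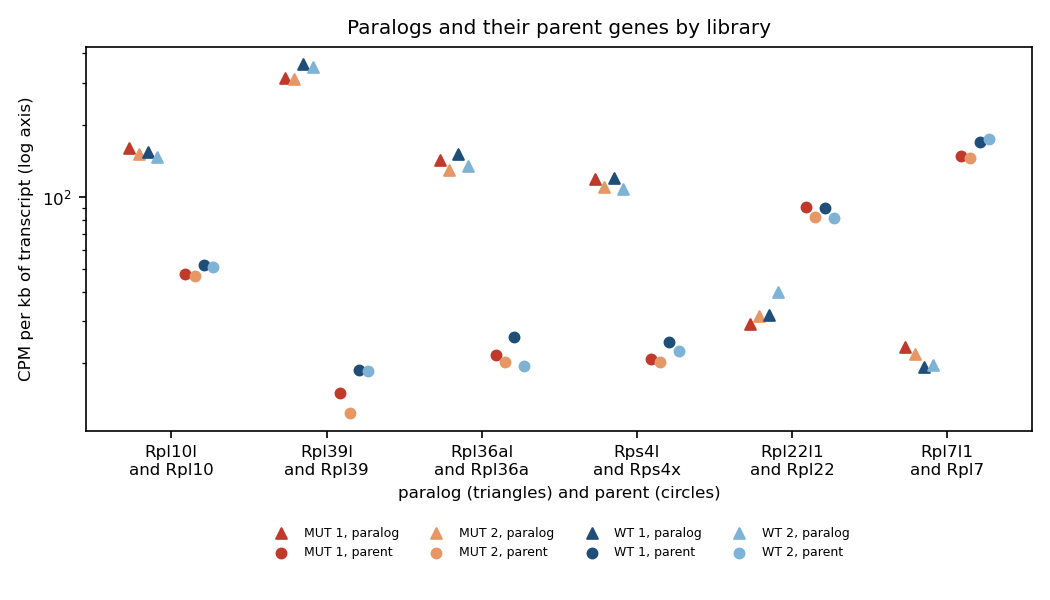
Each symbol is the CPM per kb of transcript of a paralog (triangles) or its parent gene (circles) in a library, on a log axis, for 6 pairs. Rpl10l, Rpl39l, Rpl36al and Rps4l lie above their X-linked parents in all 4 libraries, while Rpl22l1 and Rpl7l1 lie below Rpl22 and Rpl7.

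Of the paralogs of autosomal genes, Rpl7l1, Rpl22l1 and Rpl3l were less abundant per length than their partners. Rpl7l1 (chr17:46773907-46782672), whose coding sequence is 54.0% identical to that of Rpl7, stood at 30.8 and 28.6 CPM in MUT against 25.4 and 25.8 CPM in WT. Both MUT libraries were higher, with a log2 fold change of 0.21 (SE 0.083) and a limma adjusted p of 0.240, while Rpl7 was lower in MUT. The share of Rpl7l1 in the pair was 13.7% and 13.0% in MUT and 10.3% and 10.1% in WT, a difference of 3.20 percentage points (SD within genotypes 0.340). Rpl22l1, the paralog that Rpl22 is known to repress, stood at 16.2 and 17.5 CPM in MUT against 17.6 and 22.1 CPM in WT. WT 2 was high and the other libraries were close together, and the limma adjusted p was 0.332. Rpl22 stood at 42.8 and 39.2 CPM in MUT against 42.6 and 38.7 CPM in WT, with a log2 fold change of 0.012 (SE 0.082). The share of Rpl22l1 in its pair overlapped between the genotypes, at 24.6% and 27.7% in MUT and 26.2% and 32.9% in WT. The mean difference was -3.41 percentage points (SD within genotypes 3.69), and -0.084 without WT 2. Rpl3l, known from muscle, stood at 0.246 and 0.195 CPM in the MUT libraries and 0.311 and 0.241 CPM in the WT libraries, at most 0.202% of its pair with Rpl3. Rpl3 stood at 147.9 and 144.2 CPM in MUT against 151.0 and 140.3 CPM in WT, and its groups overlapped. Among the 7 tested paralogs the median log2 fold change was 0.00027, with 4 above 0 and 3 below.

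Core members with almost no reads were the exception in an otherwise abundant family. Rps27, Rpl30, Rpl34 and Rpl26 are core ribosomal proteins, yet each stayed under 1 CPM in all 4 libraries and none was tested. Rps27 had 33 and 19 reads in MUT and 31 and 15 in WT, which is 0.677, 0.464, 0.460 and 0.302 CPM. Rpl30 stood at 0.410 and 0.464 CPM in MUT against 0.771 and 0.704 CPM in WT. Rpl34 stood at 0.287 and 0.244 CPM in MUT against 0.252 and 0.201 CPM in WT. Rpl26 had 4 and 0 reads in MUT and 3 and 5 in WT, and its 0 in MUT 2 allows up to 0.0733 CPM. The other 73 core members had mean values between 9.92 and 770 CPM.

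Near-identical copies of these genes exist, and the values of genes with such copies are uncertain where counting can split or drop their reads. Rps27 (chr3:90212522-90213651, minus strand) and the paralog Rps27rt (chr9:114982366-114982739, minus strand) have the same coding sequence of 252 bases, shown here because no coding read can be assigned to either gene by its sequence.
Rps27 and Rps27rt: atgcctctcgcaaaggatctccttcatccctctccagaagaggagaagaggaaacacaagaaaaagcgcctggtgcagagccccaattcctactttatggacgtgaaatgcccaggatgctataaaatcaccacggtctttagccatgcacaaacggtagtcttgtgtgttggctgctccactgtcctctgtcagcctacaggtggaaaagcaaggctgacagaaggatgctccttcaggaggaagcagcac
No base is in capitals since none differs. Rps27rt was listed at 0 in all 4 libraries, and 98.6% of the 50-base windows of the Rps27 transcript occur in transcripts of other genes, each of them in Rps27rt. Rps27l, a paralog with 76.2% coding identity to Rps27, stood at 23.8 and 25.02 CPM in MUT against 24.1 and 24.7 CPM in WT, with a log2 fold change of 0.00027 (SE 0.085). The shared windows came to 76.4% for Rpl30, 71.3% for Rpl26 and 50.6% for Rpl34. Among the 73 other core members, 18 had 80.3% to 95.1% of their windows shared and stood at 10.6 to 311.5 CPM. Windows were counted on either strand and in any other annotated gene, so not all sharing is with copies. For Rpl35 (95.1%) the top partner is Wdr38, which overlaps it on the opposite strand. For Rps10 (92.4%) it is RPS10-NUDT3, which overlaps it on the same strand. The labels do not say how reads with several matches were counted, and its part in these low values was not tested. Rpl37rt, the remaining paralog under the filter, stood at 0.369 and 0.953 CPM in MUT against 0.949 and 0.663 CPM in WT.

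**Figure D5:**
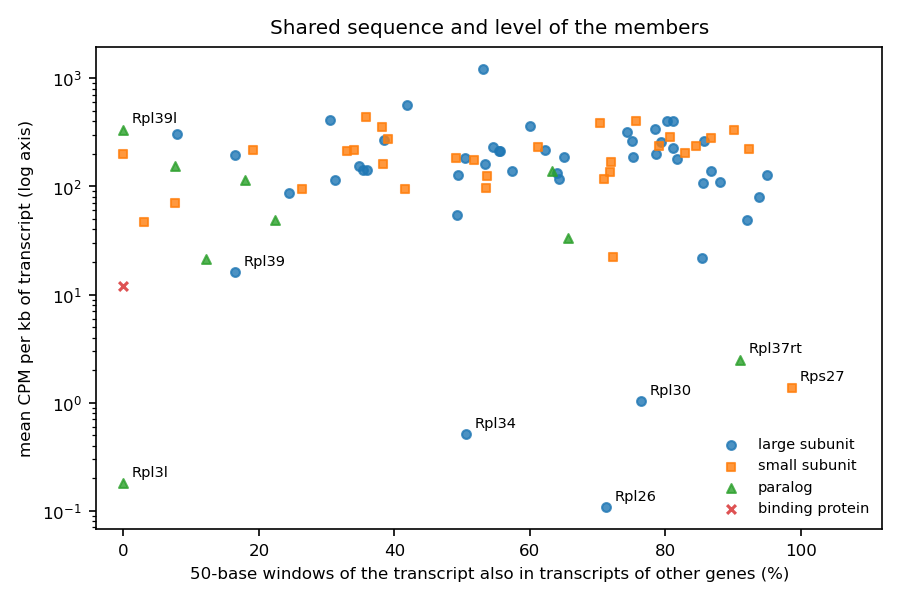
Each point is a member with reads, with the share of the 50-base windows of its transcript that occur in transcripts of other genes on the horizontal axis and the mean CPM per kb over 4 libraries on a log axis. Rps27 (98.6% shared), Rpl30, Rpl26 and Rpl34 lie far under the other core members, 18 of which share 80.3% to 95.1% of their windows.

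Ribosomal proteins whose names fall outside the rule behaved in a similar range. Fau, a ubiquitin-like protein fused to a small subunit protein, had 0.020 (SE 0.075), and Rack1, listed under its older symbol Gnb2l1, had 0.0078 (SE 0.068). The groups overlapped for both. Among 13 translation factors with TOP mRNAs, 0 were called by limma, beside 0.749% of all tested genes. In this list 3 had an unadjusted p under 0.05, all lower in MUT. Over all tested genes 6.98% were lower at that threshold. Eif3f stood at 117.0 and 114.1 CPM in MUT against 128.5 and 133.3 CPM in WT, with a limma adjusted p of 0.207. Eef1d, a subunit of the exchange factor of elongation factor 1, stood at 741.4 and 681.4 CPM in MUT against 795.8 and 786.5 CPM in WT, with a limma adjusted p of 0.233. Pabpc1, the poly(A) binding protein, was highest in the list at 2776 and 2685 CPM in MUT and 2741 and 2643 CPM in WT, and its groups overlapped.

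The machinery that makes ribosomes and controls their mRNAs also held no called gene, beside 0.749% of all tested genes. At that share, lists of this length can hold no call whatever their genes are. Of 44 ribosome biogenesis genes, 0 were called by limma's test and 1 had an unadjusted p under 0.05: Ncl, the nucleolar protein nucleolin, at 98.5 and 92.0 CPM in MUT and 89.6 and 80.6 CPM in WT. Its log2 fold change was 0.16 (SE 0.074) with a limma adjusted p of 0.309. Of 15 genes of RNA polymerase I, which transcribes ribosomal RNA, 0 were called by limma and 1 had an unadjusted p under 0.05, Polr1e, at 10.6 and 9.99 CPM in MUT and 12.3 and 13.1 CPM in WT. Of 14 tested genes of mTORC1 and TOP mRNA control, 0 were called and 0 had an unadjusted p under 0.05 in limma, but 6 were higher in MUT without overlap, beside 23.0% of all tested genes. Larp1, which binds TOP mRNAs, was among them at 777.6 and 771.4 CPM in MUT and 739.9 and 721.9 CPM in WT, with a log2 fold change of 0.084 (SE 0.057) and a limma adjusted p of 0.526. Of 9 genes of ribosome surveillance and the Rpl5 and Rpl11 stress signal, 0 were called and 0 had an unadjusted p under 0.05 in limma. Mdm2, the ubiquitin ligase that Rpl5 and Rpl11 bind, stood at 155.4 and 158.4 CPM in MUT against 149.4 and 147.6 CPM in WT, with a log2 fold change of 0.080 (SE 0.064). Of 77 mitochondrial ribosomal proteins, 0 were called by limma, and 0 were higher and 5 lower at an unadjusted p under 0.05. Their median log2 fold change was -0.014. Over all tested genes, 7.74% were higher and 6.98% lower at that unadjusted threshold.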

How the data were processed

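RNA of testis was sequenced in 4 libraries, and the values the authors deposited are CPM, read counts divided by a scaled library size. The build mm10 and the tools HTSeq 0.6.0, edgeR 3.8.6 and TopHat2 2.0.10 were used per the submitters' processing notes, which give no roles or order. The strand setting, the annotation and the treatment of reads with several matches are not given in the sources used here. In the deposited CPM, 100% of values lay within 0.001 of a whole number of reads, from which read counts were recovered.

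Genes with at least 1 CPM in at least 2 libraries were tested on log2(CPM + 0.5) with limma 3.58.1 (mean-variance trend, two-sided) in R 4.3.3, and p-values were Benjamini-Hochberg adjusted over all 15364. Fold changes are on this scale and understate those of weak genes. Calls needed an adjusted p under 0.05. Alternatives changed the pseudocount, filter, scaling, variances, block and libraries, removed the trend on GC content and length (known for 99.3% of tested genes), and used edgeR 4.0.16 and DESeq2 1.42.0 on recovered reads. A fit that leaves out a library keeps a single library of a genotype, so its fold changes are given without a p. The pipeline was tested on simulated reads for MUT against WT over 15283 genes. It called 40% of genes changed 1.2-fold, 90% at 1.5-fold and 100% at 2-fold and 4-fold, with 7 false calls among 172. Each simulated gene had the spread typical of its level, with no shift of a whole library. The real data may depart from this, so these shares may be too favorable.

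Named genes are the called members, paralog pairs, stalk proteins, Rpsa, Rpl4, Rpl5, Rpl11, Rps6, Rps19, and in each class the 3 highest and 2 lowest by mean CPM and the 4 with the smallest p. In the other lists they are the called genes, the highest and the 2 with the smallest p. Not all are printed, and some genes are not reported here. Members and lists were chosen with earlier results of these data known. Positions (1-based), lengths and sequences come from GENCODE vM21 on GRCm38, which matched 23376 symbols by name and another 667 through RefSeq. Length is that of the principal transcript.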

Additional observations from a re-analysis of the deposited data

How the results depend on the processing

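The median log2 fold change of the members was below 0 in every alternative run except the fit without WT replicate 1. With 2 libraries per genotype a fold change of a member had a median SE of 0.071, which reached 0.12 for Rpl36a and 0.11 for Rpl39. The 4 core members under 1 CPM rested on at most 52 reads in a library. The cause of the changes below was not tested. The count of members called lower in MUT, 1 as reported, was 0 with a pseudocount of 0.1, no filter or each of the 3 rescalings. It was also 0 with quantile normalization, no variance trend, robust variances or the replicate block, and 2 in DESeq2. No member was called higher in a fit with all libraries. In all tested genes, 74 higher and 41 lower as reported became 7 and 4 with no filter, where more genes were tested, 5 and 2 with no variance trend, 35 and 18 with quantile normalization, and 71 to 115 and 43 to 165 with a library left out. The count called higher was 122 with rescaling to a sum of 1e+06, 113 without the 100 most abundant symbols, 120 without the members, and 42 with the trend on GC content and length removed, and 71 were called lower in DESeq2.

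The replicate numbers pair libraries by number only, and deviations of libraries with the same number correlated at -0.13 across genes, which are not independent replicates. The fit with the number as a block called 57 genes higher and 31 lower and no member, with an adjusted p of 0.0907 for Rps20 in limma. A block with crossed numbers, chosen after seeing the data, called 131 genes higher and 104 lower.

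Genes near 0 changed sign without passing the test. A rescaling adds nearly the same amount to every gene, so its sign changes say nothing particular to these genes. Under rescaling to a sum of 1e+06 the log2 fold change was 0.0028 for Rpl11, 0.014 for Rpl4 and 0.010 for Rplp0. Rescaling without the 100 most abundant symbols gave 0.0079 for Rpl4 and 0.0038 for Rplp0. Rescaling without the members gave 0.0026 for Rpl11, 0.014 for Rpl4 and 0.0099 for Rplp0. Quantile normalization gave 0.0013 for Rpl11, 0.014 for Rpl4, 0.029 for Rpl41, 0.059 for Rplp0 and -0.022 for Rps27l. The recovered reads gave -0.011 for Rplp1, -0.0011 for Rps27l and -0.0022 for Rps4l in edgeR, and -0.0096, -0.00030 and -0.0014 in DESeq2. Removing the trend on GC content and length gave 0.00089 for Rpl41, 0.00076 for Rplp0, -0.011 for Rps27l and 0.0032 for Rps6. With a library left out the values ranged from -0.12 to 0.069 for Rpl11, from -0.057 to 0.080 for Rpl22, from -0.048 to 0.058 for Rpl3, from -0.29 to 0.097 for Rpl36a, from -0.15 to 0.015 for Rpl36al and from -0.044 to 0.015 for Rpl4. They ranged from -0.16 to 0.090 for Rpl41, from -0.084 to 0.046 for Rplp0, from -0.19 to 0.20 for Rplp1, from -0.034 to 0.035 for Rps27l and from -0.076 to 0.077 for Rps4l. Outside the members they ranged from -0.096 to 0.14 for Fau, from -0.010 to 0.10 for Hbs1l, from -0.0056 to 0.047 for Pabpc1 and from -0.070 to 0.083 for Rrp1. With coding in place of transcript length, chosen after seeing the data, the share of Rpl7l1 differed by 3.75 percentage points in place of 3.20.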

Other observations

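The symbols left out by the name rule were looked at as values. The Rps6k kinases, which phosphorylate Rps6 and other targets, count 10 genes. Of these 9 were tested and 0 were called by limma, beside 0.749% of all tested genes. Rps6ka1 stood at 64.1 and 61.3 CPM in MUT against 71.2 and 79.3 CPM in WT, with both MUT libraries low, a log2 fold change of -0.26 (SE 0.075) and a limma adjusted p of 0.110. Rps6ka2 stood at 40.0 and 38.2 CPM in MUT against 35.6 and 33.1 CPM in WT, with both MUT libraries high, a log2 fold change of 0.19 (SE 0.080) and a limma adjusted p of 0.288. Both are named here after their values were seen. The kinases of the S6K type, Rps6kb1 and Rps6kb2, had log2 fold changes of 0.068 (SE 0.11) and -0.078 (SE 0.13). Of the 7 symbols with the pseudogene ending, 2 were listed at 0 in all libraries and the highest, Rpl14-ps1, averaged 1.38 CPM in MUT.

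Among the mitochondrial ribosomal proteins, Mrpl47 stood at 51.1 and 51.5 CPM in MUT against 56.1 and 64.3 CPM in WT. It was lower in both MUT libraries, at -0.23 (SE 0.079) with a limma adjusted p of 0.184, and -0.32 without WT 1. Mrpl35 stood at 39.7 and 38.3 CPM in MUT against 44.9 and 45.7 CPM in WT, with a log2 fold change of -0.21 (SE 0.076) and a limma adjusted p of 0.195.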
